A study of Homo sapiens with 12 samples.

Results

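A set of 10 genes known for their response to low oxygen and for their part in sugar breakdown were followed across 3 established human lines of gastric cancer cells (AGS, MKN1 and SNU601). The members were CA9, VEGFA, ADM, ANKRD37, NDRG1, BNIP3, PDK1, PFKFB3, PFKFB4 and HK2, and each was taken as the transcript cluster annotated to its symbol (the array's probe set for 1 transcript unit). Of these 10 genes, 6 had an annotated cluster, 1 each, and 4 (VEGFA, ADM, NDRG1 and HK2) lay above the level needed for testing. CA9, PDK1, PFKFB3 and PFKFB4 were not analysed here. ANKRD37 and BNIP3 are described by their values because their means over the 12 arrays, 4.55 and 3.80 on the log2 scale, lay under the threshold of 4.61, the 40th percentile of all gene means. In all, 14884 symbols had a cluster and 8930 of them were tested.

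Transcript levels were measured on Affymetrix Human Gene 2.0 ST arrays, and every level is a normalised log2 signal. The cells grew in RPMI-1640 medium with fetal calf serum, and each line was treated with DMSO, the solvent control, with Rhosin, which inhibits the small GTPase RhoA, or with JK136 or JK139, which are known here by code name alone. Each of the 12 combinations of line and treatment had 1 array, so that each line had 4 arrays and each treatment 3. Doses, exposure times, the oxygen level and any genetic change made to the lines are not named in the labels used here. No structural comparison of the compounds was made. Each line stands for 1 tumour grown without the vessels and stroma around it, and repeat cultures of 1 line under 1 treatment were not compared.

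Over all clusters, Pearson's r was 0.978 to 0.988 for pairs of arrays from the same line and 0.927 to 0.960 for pairs from different lines. Array medians over the tested genes lay between 6.15 (AGS with Rhosin) and 6.25. The keratins KRT8, KRT18 and KRT19 and the adhesion molecule EPCAM, markers of epithelial cells, passed the threshold of testing, and EPCAM averaged 10.04 in AGS, 6.49 in MKN1 and 10.19 in SNU601. Of 5 endothelial markers 3 were measured, and 0 passed that threshold. In bulk RNA of this kind, fewer cells of a type and less RNA per cell cannot be told apart.

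When oxygen is scarce, the prolyl hydroxylases that mark hypoxia-inducible factor (HIF) for destruction lose activity, and HIF accumulates and binds short core motifs near its target genes. The targets include secreted factors that act on blood vessels, enzymes that speed glucose breakdown and divert pyruvate from the mitochondria, and proteins of mitochondrial turnover. Several of them are also driven by growth factor signalling and other stresses, so their transcripts are not a direct reading of oxygen. In gastric cancer, VEGFA signalling is a target of therapy against vessel growth.

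HIF binds the core sequences ACGTG and GCGTG, and the promoters of the measured genes were searched for both on either strand, with CACGTG, which reads as a core on each strand, counted once. A RefSeq promoter (GRCh38.p14, from 250 bases before to 50 after a start site) was at hand for ADM, ANKRD37, BNIP3 and HK2. The window held 1 core in ADM, 2 in ANKRD37, 5 in BNIP3 and 3 at the first listed start of HK2, with 4 at its second (chr2:74834920-74835219). Of all 35116 RefSeq promoters of this length, 48.4% held at least 1 core, 20.3% at least 2 and 7.87% at least 3. The stretches that hold the cores are shown because they set genes whose level was higher in AGS with Rhosin (HK2 and ADM) beside genes that lay under the threshold of testing (ANKRD37 and BNIP3). ADM passed that threshold by its mean over all lines, but its AGS mean of 4.54 lay under it. The stretches read 5′ to 3′ on the gene's strand, and capitals mark the cores.
ADM, chr11:10304960-10304988, plus strand: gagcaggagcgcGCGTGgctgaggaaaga
ANKRD37, chr4:185396667-185396714, plus strand: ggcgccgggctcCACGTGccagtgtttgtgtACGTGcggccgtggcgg
BNIP3, chr10:131982011-131982078, minus strand: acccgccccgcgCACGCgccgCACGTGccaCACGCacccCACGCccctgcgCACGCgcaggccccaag
HK2, chr2:74833886-74834095, plus strand: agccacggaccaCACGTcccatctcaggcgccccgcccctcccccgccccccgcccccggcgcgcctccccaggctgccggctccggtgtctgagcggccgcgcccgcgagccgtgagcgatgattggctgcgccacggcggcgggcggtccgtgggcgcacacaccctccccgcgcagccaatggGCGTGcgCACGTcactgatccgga
A match is not a site in use, and binding of HIF was not measured.

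VEGFA, the secreted growth factor that drives blood vessel formation, lies at chr6:43770211-43786487 (GRCh38.p14, the build of all gene positions given here). In AGS its level was 8.21 with DMSO, 8.11 with Rhosin, 7.15 with JK136 and 8.01 with JK139. In MKN1 the levels were 5.94, 6.01, 6.22 and 5.70 in the same order of treatments. In SNU601 they were 7.24, 7.08, 7.43 and 7.27. Its level with JK136 in AGS stood 0.96 under the mean of the other 3 AGS arrays, 0.516 of their level, and those 3 arrays lay between 8.01 and 8.21. JK136 gave the highest VEGFA level of the 4 treatments in both MKN1 and SNU601.

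ADM encodes adrenomedullin, a secreted peptide that widens vessels, and lies at chr11:10305073-10307397. Its AGS levels were 4.43 with DMSO, 4.79 with Rhosin, 4.57 with JK136 and 4.35 with JK139. MKN1 had levels of 5.54, 5.35, 5.59 and 5.50 under the same treatments. SNU601 had 5.01, 4.92, 4.95 and 4.88. Rhosin gave the highest of the 4 AGS values and the lowest of the 4 MKN1 values.

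NDRG1, a stress-responsive protein of the cytoplasm that is strongly induced in hypoxic cells, lies at chr8:133237175-133297252. Its AGS levels were 4.72 with DMSO, 5.63 with Rhosin, 5.11 with JK136 and 4.91 with JK139. In MKN1 they were 6.55, 6.86, 6.96 and 6.66, and in SNU601 6.52, 6.76, 6.67 and 6.62. DMSO gave the lowest NDRG1 level in each of the 3 lines. Rhosin gave the highest in AGS and SNU601, and JK136 in MKN1.

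HK2 encodes hexokinase 2, which phosphorylates glucose in the first step of glycolysis and is raised in many tumours. The gene lies at chr2:74834127-74893359. Its AGS levels were 6.93 with DMSO, 7.75 with Rhosin, 6.41 with JK136 and 6.92 with JK139. MKN1 had 6.06, 6.0, 6.42 and 6.31, and SNU601 had 7.81, 7.78, 7.58 and 7.61. DMSO and JK139 gave nearly the same level in AGS, with Rhosin above and JK136 below them. The range over treatments was 1.34 in AGS and at most 0.414 in the other lines.

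The remaining measured genes lay under the threshold of testing. ANKRD37, an ankyrin-repeat protein known as a HIF target (chr4:185396841-185400723), lay between 4.23 and 4.58 in AGS, 4.87 and 5.27 in MKN1, and 3.89 and 4.44 in SNU601. In SNU601 its level was lowest with DMSO and highest with JK136. BNIP3, a protein of mitophagy at the outer mitochondrial membrane (chr10:131967684-131981923), lay between 3.85 and 4.15 in AGS, 3.59 and 3.93 in MKN1, and 3.39 and 3.98 in SNU601. In AGS, BNIP3 was at 4.15 with both Rhosin and JK139, and ANKRD37 with Rhosin lay within the range of its other arrays.

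**Figure D1:**
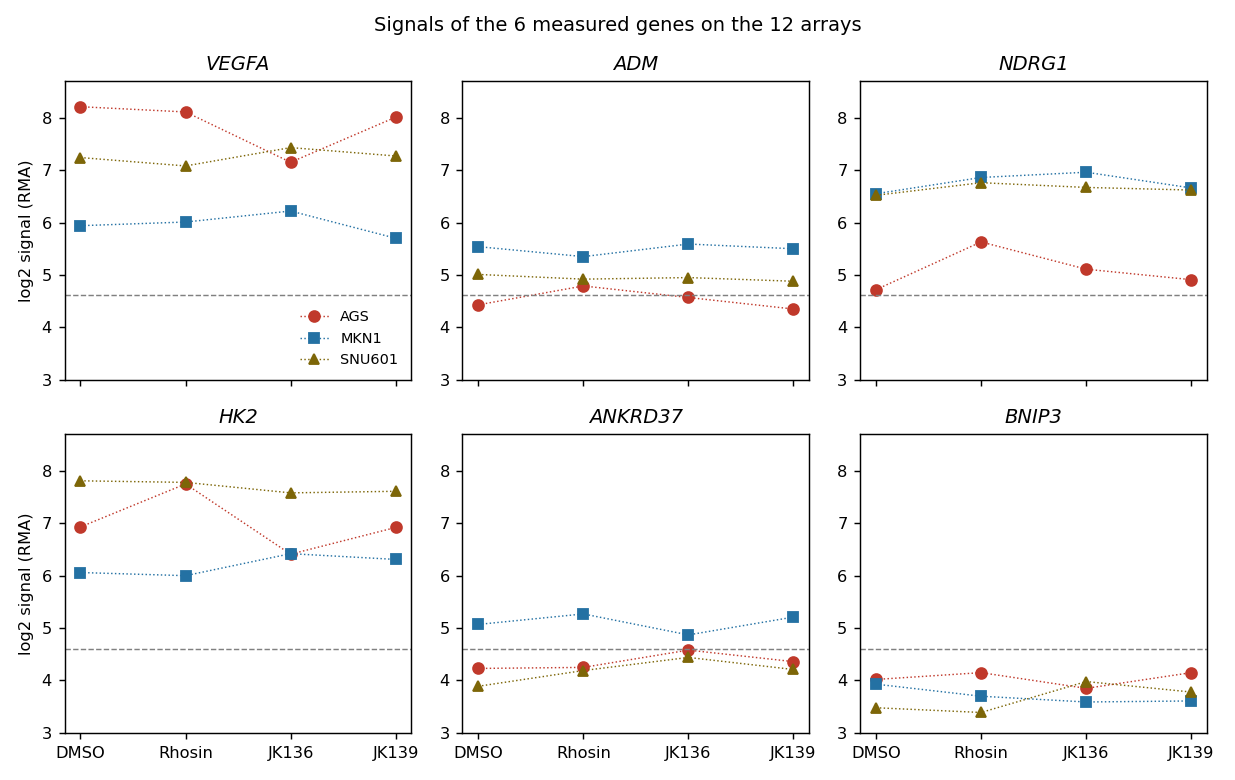
Levels (log2 signal, vertical axis) of the 6 measured genes (panels) on each of the 12 arrays, by treatment (horizontal axis) and cell line (colour and marker), 1 point an array. HK2 and NDRG1 with Rhosin in AGS sit above the other AGS arrays at 7.75 and 5.63, VEGFA with JK136 in AGS sits below its line at 7.15, and the lines lie apart for most genes.

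The comparison of AGS with Rhosin against the other AGS arrays asks how far that array stood from its line. HK2 was 1.0 ± 0.20 (SE) higher on the log2 scale, a 2.0-fold difference, and NDRG1 was 0.71 ± 0.18 higher, or 1.64-fold. ADM was 0.34 ± 0.12 higher, and VEGFA differed by 0.32 ± 0.32. Each difference is 1 Rhosin array against the mean of the arrays with DMSO, JK136 and JK139 (n = 3). Their spread within lines, pooled for each gene over the 3 lines, served as the error. For HK2 the SD of these arrays was largest for AGS, at 0.297 against 0.182 for MKN1 and 0.125 for SNU601. AGS also had the largest SD for ADM and VEGFA, while for NDRG1 MKN1 did (0.209 against 0.196 for AGS). The quieter lines thus lowered the error behind the AGS p-values and intervals of HK2, ADM and VEGFA. The lone Rhosin array is assumed to vary as the other arrays do. None of the 4 tested members was called at an adjusted p under 0.05 in limma (Benjamini-Hochberg over 8930 genes), while 0.728% of all genes were (65 genes, 27 higher and 38 lower). HK2 had an adjusted p of 0.0509 (limma, 95% interval 0.55 to 1.45) and NDRG1 one of 0.0777 (0.33 to 1.10). For ADM and VEGFA the adjusted limma p was 0.184 and 0.646.

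HK2 had the 26th highest difference of the 8930 genes and NDRG1 the 76th highest. ADM, NDRG1 and HK2 each lay above all 3 other AGS arrays, 3 of 4 members, where 29.0% of all genes did. NDRG1 and HK2 also stood at least 1.5-fold over the mean of those arrays, 2 of 4 members against 1.87% of genes. These genes were chosen with earlier results of the same arrays known, so the counts describe the members and are not independent evidence about them. VEGFA in AGS with Rhosin was 0.10 below its DMSO level, and without the AGS JK136 array its difference was -0.0035. Against JK136 alone, Rhosin in AGS gave 2.54-fold more HK2 and 1.94-fold more VEGFA.

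HK2 lay close to the threshold, and whether it was called depended on the processing. Its difference ranged from 0.92 to 1.04 and its adjusted p from 0.0192 to 0.106 over 9 other settings, 6 of which called it. Without the AGS DMSO array the adjusted p of HK2 was 0.0346 and without the AGS JK136 array 0.0358, and NDRG1 had 0.0444 without the latter (limma). The count of 65 genes became 126 without AGS DMSO, 124 without AGS JK136, 42 without AGS JK139, 35 without MKN1 JK139 and 34 without SNU601 JK139.

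**Figure D2:**
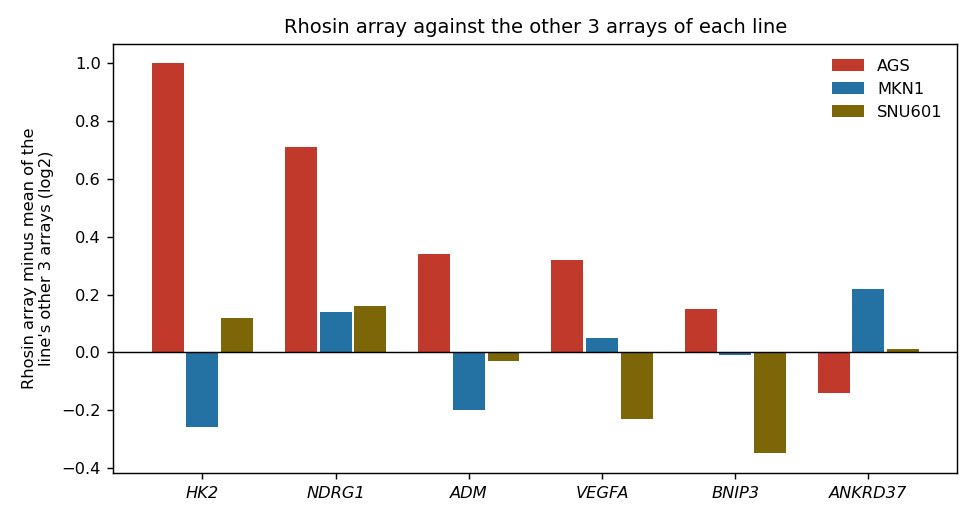
Difference between the Rhosin array and the mean of the other 3 arrays of a line (log2, vertical axis) for the 6 measured genes (horizontal axis) in AGS, MKN1 and SNU601, with no error bars because each point rests on 1 Rhosin array. HK2 stands at 1.0 and NDRG1 at 0.71 in AGS, and the points of MKN1 and SNU601 lie between -0.35 and 0.22.

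In the other lines Rhosin left the same genes nearer to their other arrays. HK2 with Rhosin was 0.26 below the mean of the other arrays in MKN1 and 0.12 above it in SNU601. NDRG1 was 0.14 and 0.16 above it, ADM 0.20 and 0.03 below it. In MKN1, 0 of 4 members lay above all other arrays (25.4% of genes) and 2 of 4, ADM and HK2, lay below them (23.9%). In SNU601, NDRG1 lay above them (27.9%) and VEGFA below (28.7%). No member reached 1.5-fold over the mean of the other arrays in MKN1 (0.370% of genes) or SNU601 (0.470%).

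Whether the Rhosin difference itself was larger in AGS was tested as an interaction. The difference for HK2 was 1.07 ± 0.25 (SE) larger in AGS than the mean of MKN1 and SNU601, 95% interval 0.52 to 1.62, with an adjusted limma p of 0.168. It was 0.57 ± 0.22 larger for NDRG1 (adjusted p 0.305), 0.45 ± 0.15 for ADM (0.261) and 0.40 ± 0.39 for VEGFA (0.704), all in limma. With 0 of 4 members called against 0.0784% of all genes, a difference between the lines in their response was not established for any member. At an unadjusted p under 0.05, 3 of the 4 members passed, and 1116 of all 8930 genes (12.5%) did.

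The other genes of the pathway were taken from lists by function. Among 40 other hypoxia-induced genes, 23 were tested, and 19 of these were higher in AGS with Rhosin than the mean of the other AGS arrays, with a median difference of 0.13 against -0.01 over all genes, of which 4330 of 8930 were higher. None of the 23 was called in limma, and 6 had an unadjusted p under 0.05, as did 1574 of all 8930 genes (17.6%). DDIT4, an inhibitor of the growth kinase mTOR that many stresses induce, had the highest difference at 1.63 ± 0.42 (SE, adjusted limma p 0.0874). Its AGS levels were 8.7 with DMSO, 9.62 with Rhosin, 7.15 with JK136 and 8.12 with JK139. DDIT4 was thus highest with Rhosin and lowest with JK136 in AGS, the order also seen for HK2. The secreted hormone STC2 followed at 0.69 and the lipase inhibitor ANGPTL4 at 0.59 ± 0.17 (adjusted limma p 0.109). The same difference was 0.16 in MKN1 and 0.50 in SNU601 for DDIT4, 0.02 and 0.71 for STC2, and 0.24 and 0.40 for ANGPTL4. DDIT4 was also highest with Rhosin in SNU601 (6.61), unlike HK2. For STC2 the difference was as large in SNU601 as in AGS. The SNU601 mean of STC2 (4.30) lay under the threshold of testing. The lowest were IGFBP3, which binds insulin-like growth factors, at -0.15, TMEM45A at -0.10 and the sterol regulator INSIG2 at -0.05. The AGS means of IGFBP3, TMEM45A, LOX, RIMKLA and CA12, all among the 23, lay under the threshold of testing. In the interaction, 21 of the 23 had a larger difference in AGS than in the mean of MKN1 and SNU601, as did 4254 of all 8930 genes. The median was 0.19 against -0.02 over all genes, and 0 of the 23 were called in limma. An unadjusted p under 0.05 was found for 2 of the 23, a smaller share than the 12.5% of all genes.

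For the enzymes of glycolysis beyond HK2 the differences were smaller than that of HK2 and of both signs. Of 21 listed enzymes 8 were tested, 3 were higher and the median difference was -0.09, with 0 called in limma and 0 at an unadjusted p under 0.05. HK1, the hexokinase of most tissues, was at 0.15, GAPDH at 0.11 and TPI1 at 0.02. LDHB was at -0.30, LDHA, which makes lactate from pyruvate, at -0.25 and PGAM1 at -0.24. In AGS, TPI1, HK1, LDHA and GAPDH averaged 5.12, 5.47, 5.78 and 5.96, under the lowest array median of the tested genes (6.15). PGAM1, PGK1, LDHB and GPI averaged 6.47, 6.71, 7.35 and 9.55. How well each cluster reads the transcripts of its enzyme was not tested. BSG, the chaperone of lactate carriers, was the measured 1 of 12 listed transporter genes and stood at -0.12.

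Genes of pyruvate entry into the mitochondria had a median difference of -0.05, with 3 of 7 tested genes higher. In limma 0 were called, and 1 had an unadjusted p under 0.05, beside 17.6% of all genes. PDP1, the phosphatase that activates pyruvate dehydrogenase, was highest at 0.54 ± 0.15 (adjusted limma p 0.0954), followed by the pyruvate carrier subunit MPC1 at 0.32 and PDHB at 0.05. MPC2 was at -0.24, and PDHA1 and DLAT, subunits of the dehydrogenase, were at -0.09 each.

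Paralogs of the members split as well, with 4 of 7 tested genes higher and a median of 0.04. In limma 0 were called, and 2 had an unadjusted p under 0.05, beside 17.6% of all genes. BNIP3L, a mitophagy receptor like BNIP3, was at 0.42, the carbonic anhydrase CA12 at 0.28 and HK1 at 0.15. VEGFB was lowest at -0.47, with NDRG2 at -0.08 and NDRG3 at -0.06. BNIP3L and CA12 also stand in the list of hypoxia-induced genes and HK1 in that of enzymes. The AGS mean of CA12 (4.52) lay under the threshold of testing.

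Among 8 receptor genes for VEGFA and ADM, 2 were tested and 1 was called, where 0.728% of all genes were. NRP1, neuropilin 1, a co-receptor of VEGFA and of semaphorins, rose by 0.91 ± 0.15 (SE) in AGS with Rhosin (adjusted limma p 0.0218). Its AGS levels were 6.62 with DMSO, 7.42 with Rhosin, 6.49 with JK136 and 6.42 with JK139, so that the Rhosin array lay above the other 3. NRP1 with Rhosin was 7.68 in MKN1, within the 7.56 to 7.86 of its other arrays, and 5.50 in SNU601, within 5.32 to 5.55. The interaction for NRP1 was 0.89 with an adjusted limma p of 0.123. The NRP1 call was lost without a filter on low values (adjusted p 0.0660) and without the SNU601 arrays (0.0523, limma). RAMP1, an accessory protein of the adrenomedullin receptor family, was at -0.37. The same difference for RAMP1 was -0.34 in MKN1 and -0.17 in SNU601, so a lower level with Rhosin was not particular to AGS.

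Of 11 regulators of HIF, 3 were tested and 0 were called in limma. An unadjusted p under 0.05 was found for 1 of them, beside 17.6% of all genes. EPAS1, the HIF-2 alpha subunit, was at 0.48, the partner subunit ARNT at -0.16 and the oxygen-sensing hydroxylase EGLN1 at -0.32. HIF1A itself was not analysed here.

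**Figure D3:**
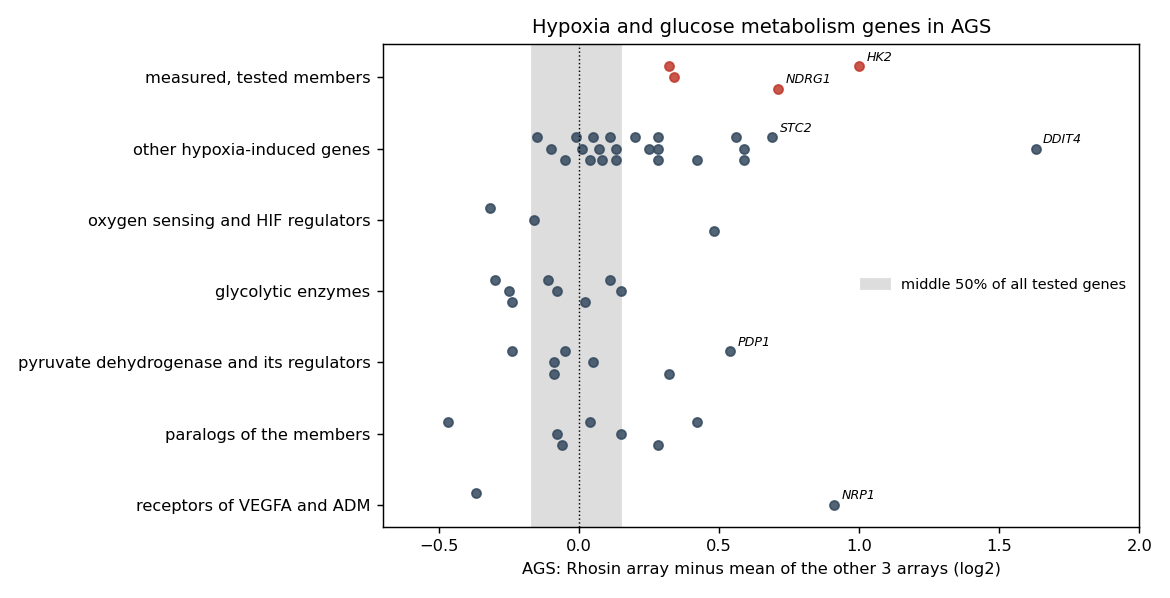
Difference in log2 signal between AGS with Rhosin and the mean of the other 3 AGS arrays (horizontal axis) for the tested genes of the members (red) and of 6 gene lists (rows), 1 point a gene, with the highest genes labelled and the middle 50% of all tested genes in grey. The hypoxia-induced genes lie mostly to the right of 0 with a median of 0.13, the glycolytic enzymes lie around -0.09, and NRP1 at 0.91 is the one called gene.

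Over the 3 lines together, the comparison of each compound with DMSO asks how far a gene differed on average over the lines. It does not ask whether the lines shared a direction. NDRG1 differed by 0.49 ± 0.13 (SE, n = 3 lines) with Rhosin, 0.32 ± 0.13 with JK136 and 0.13 ± 0.13 with JK139. It was higher than with DMSO in 3 of 3 lines with each compound, as were 12%, 10.6% and 10.1% of all genes. With Rhosin, NDRG1 differed from DMSO by 0.91 for AGS, 0.31 for MKN1 and 0.25 for SNU601. The value over the lines was 0.28 without the AGS arrays and 0.30 without the AGS Rhosin array alone. The JK139 value was 0.04 without the AGS DMSO array and 0.08 without the SNU601 JK139 array. The 3 comparisons share the DMSO arrays, which held the lowest NDRG1 level of each line. For Rhosin the adjusted limma p of NDRG1 was 0.532, with an unadjusted p of 0.00268 and a 95% interval of 0.21 to 0.77. In these 3 comparisons 0 of 4 members and 0 of 8930 genes (0%) were called in limma. Unadjusted p-values under 0.05 numbered 560 of the genes for Rhosin, 469 for JK136 and 218 for JK139.

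HK2 differed from DMSO by 0.25 ± 0.23 with Rhosin, -0.13 ± 0.23 with JK136 and 0.02 ± 0.23 with JK139. Behind the Rhosin value lay 0.83 in AGS, -0.06 in MKN1 and -0.03 in SNU601. The lines did not share a direction, and without AGS the difference was -0.04. ADM differed by 0.03 ± 0.11, 0.05 ± 0.11 and -0.08 ± 0.11 with the 3 compounds. ADM was lower with JK139 than with DMSO in 3 of 3 lines, as were 13.6% of genes. VEGFA differed by -0.06 ± 0.23, -0.19 ± 0.23 and -0.14 ± 0.23, and behind the JK136 value lay -1.05 for AGS, 0.28 for MKN1 and 0.19 for SNU601.

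**Figure D4:**
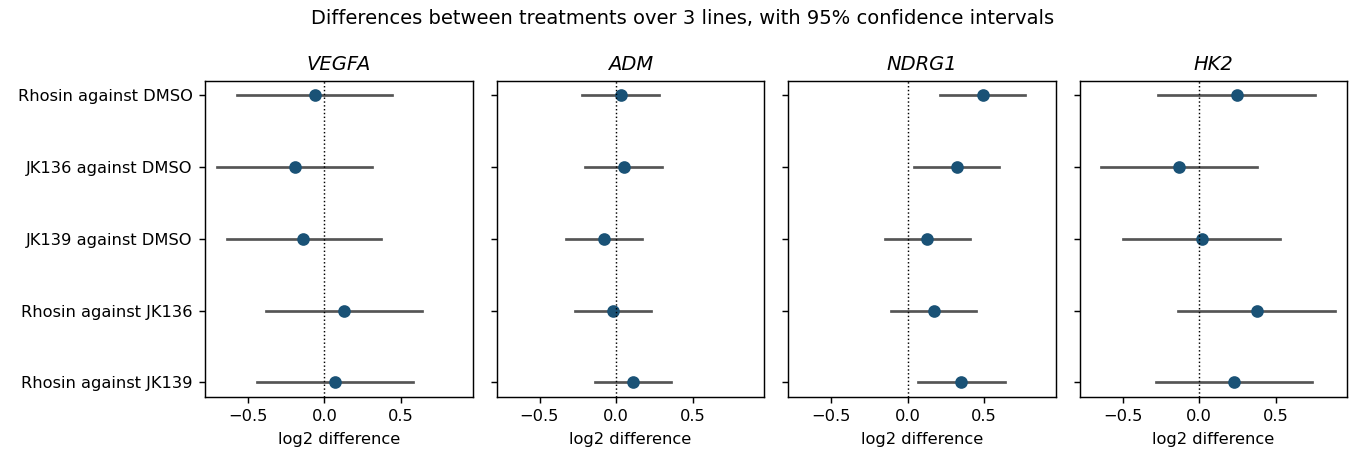
Log2 differences between treatments over the 3 lines (horizontal axis) with 95% intervals from limma for VEGFA, ADM, NDRG1 and HK2 (panels), 1 row a comparison. The interval of NDRG1 for Rhosin against DMSO runs from 0.21 to 0.77, and 0 of the differences were called after adjustment over 8930 genes.

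The compounds were also set against each other, though their doses are not given in the labels used here and may differ. Between Rhosin and JK136 over the lines, HK2 differed by 0.38 ± 0.23 (95% interval -0.14 to 0.89) and NDRG1 by 0.17 ± 0.13. Between Rhosin and JK139, NDRG1 differed by 0.35 ± 0.13 (0.07 to 0.64) and HK2 by 0.23 ± 0.23. VEGFA differed by 0.13 ± 0.23 and 0.07 ± 0.23 in these comparisons and ADM by -0.02 ± 0.11 and 0.11 ± 0.11. Between JK139 and JK136, the differences were 0.06 ± 0.23 for VEGFA, -0.13 ± 0.11 for ADM, -0.19 ± 0.13 for NDRG1 and 0.15 ± 0.23 for HK2. With 0 of 4 members and 0% of all genes called in each of the 3 comparisons (812, 663 and 494 genes at an unadjusted p under 0.05 in limma), the intervals bound how far the compounds could differ over the lines. They do not show that the compounds act alike.

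In AGS, VEGFA and HK2 had their lowest levels with JK136. With JK136 both lay below all 3 other AGS arrays, 2 of 4 members where 31.3% of genes did, and both were at least 1.5-fold under their mean, where 1.88% of genes were. HK2 was 0.79 under that mean, at 0.578 of the level. ADM and NDRG1 with JK136 differed from that mean by 0.05 and 0.03. These values rest on 1 array and were not tested. The mean of the 4 members after centring each gene within its line was 0.44 for AGS with Rhosin and -0.31 for AGS with JK136, and lay between -0.08 and 0.19 on the other 10 arrays.

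Cell line was the larger source of variation for the members. It held 89.3% of the sum of squares of VEGFA, 92.4% of ADM, 92.1% of NDRG1, 80.5% of HK2 and 85.4% of ANKRD37, beside a median of 82.0% over the tested genes. For BNIP3 it held 49.9%. Treatment held 5.43% for NDRG1 and 4.0% for HK2, beside a median of 5.30%.

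No single line had the highest level of all members. VEGFA was highest in AGS at 7.87 ± 0.48 (SD, n = 4 arrays), followed by SNU601 at 7.25 ± 0.14 and MKN1 at 5.97 ± 0.22. HK2 was highest in SNU601 at 7.69 ± 0.12, followed by AGS at 7.0 ± 0.56 and MKN1 at 6.20 ± 0.20. ADM and NDRG1 were lowest in AGS, ADM at 4.54 ± 0.19 against 5.50 ± 0.11 in MKN1 and 4.94 ± 0.05 in SNU601. NDRG1 was at 5.09 ± 0.39 in AGS, 6.76 ± 0.18 in MKN1 and 6.64 ± 0.10 in SNU601.

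In MKN1 against AGS, VEGFA was lower by a log2 difference of -1.90 ± 0.20 (SE, adjusted limma p 4.55e-06) and HK2 by -0.80 ± 0.20 (0.00402), while NDRG1 was higher by 1.67 ± 0.11 (8.15e-08) and ADM by 0.96 ± 0.10 (3.57e-06). All 4 tested members were called, as were 66.3% of all genes (35.3% higher and 31.0% lower), and so a call between lines was the usual case. The 4 arrays of each line did not overlap for VEGFA, ADM and NDRG1, as for 59.1% of genes. In SNU601 against AGS, VEGFA differed by -0.61 ± 0.20 (adjusted limma p 0.0222), ADM by 0.41 ± 0.10 (0.00433), NDRG1 by 1.55 ± 0.11 (3.57e-07) and HK2 by 0.69 ± 0.20 (0.0130). Again 4 of 4 were called, against 52.7% of genes (29.9% higher and 22.8% lower), and the arrays did not overlap for ADM and NDRG1, as for 47.3% of genes. The VEGFA call was lost without the AGS DMSO, AGS Rhosin, AGS JK139, SNU601 DMSO or SNU601 Rhosin array (adjusted p up to 0.0883), and that of HK2 without AGS JK136 (0.0517, limma).

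Between SNU601 and MKN1, 3 of 4 members were called, against 63.4% of genes (32.3% higher and 31.1% lower). VEGFA was 1.29 ± 0.20 (SE) higher in SNU601 (adjusted limma p 0.000128), HK2 1.49 ± 0.20 higher (4.13e-05) and ADM differed by -0.56 ± 0.10 (0.000351). NDRG1 differed by -0.12 ± 0.11 (adjusted limma p 0.388) and was not called. The arrays of VEGFA, ADM and HK2 did not overlap, as for 62.1% of genes. Without the filter on low values, ANKRD37 was higher in MKN1 than in AGS by 0.75 (adjusted limma p 0.000369) and differed by -0.92 between SNU601 and MKN1 (7.84e-05), and BNIP3 was called between no pair of lines (adjusted p 0.0604 to 0.811).

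Calls between lines among the genes around the members are read against the shares of all genes given above. Of the 8 tested glycolytic enzymes, 5 were called higher and 0 lower in MKN1 than in AGS, led by GPI (1.56), LDHA (1.53), HK1 (1.44) and PGK1 (0.76), which is near the 66.3% of all genes called in either direction. HK1 was thus higher in MKN1 than in AGS, where HK2 was lower. All 7 tested genes of pyruvate entry were called higher in MKN1, PDP1 most at 1.12. Among the 23 hypoxia-induced genes, 12 were called higher and 6 lower (against the same 66.3%), with IGFBP3 at 5.80, the collagen cross-linking enzymes LOXL2 at 2.67 and LOX at 2.31, and TMEM45A at 2.60. IGFBP3, LOX, TMEM45A and RIMKLA (0.78, also called higher) had AGS and SNU601 means under the threshold of testing. They were tested only because of their MKN1 levels, which favours a call of higher in MKN1. Their calls are therefore not independent of the filter on low values. EGLN1 (-0.95) and ARNT (-0.66) were called lower, and NRP1 was higher by 0.97. In the same comparison the fibroblast marker LUM averaged 8.76 in MKN1 and 2.90 in AGS, while DCN averaged 1.96 and 1.90, both near the bottom of the scale. Of 6 fibroblast markers 2 were measured, with summed log2 levels of 9.99 to 11.16 in MKN1 and 4.57 to 5.03 in AGS, and their part in these differences was not tested. The myeloid and secretory enzyme LYZ averaged 3.74 in MKN1 and 10.83 in AGS.

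In SNU601 against AGS, 4 glycolytic enzymes were called higher, with HK1 at 0.81, LDHA at 0.74 and GPI at 0.73, and LDHB was called lower (-0.62). Of the 23 hypoxia-induced genes 4 were called higher and 6 lower, a smaller share than the 52.7% of all genes. Those with the largest differences were DDIT4 (-2.16), BNIP3L (0.85), CCNG2 (-0.76) and TXNIP (0.67). IGFBP3, LOX, TMEM45A and RIMKLA, with means under the threshold of testing in both lines, were not called. ARNT (-1.10) and EGLN1 (-0.63) were called lower and EPAS1 (0.43) higher, and NRP1 differed by -1.29. Between SNU601 and MKN1, 1 of 8 glycolytic enzymes was called higher and 5 lower, and of 7 genes of pyruvate entry 1 was called higher and 5 lower, with PDP1 at -1.74, beside 63.4% of all genes called. NRP1 had its lowest level in SNU601, -2.26 from MKN1.

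After centring within lines, the 4 tested members varied together in part over the 12 arrays. Pearson's r was 0.65 between NDRG1 and ADM, 0.60 between HK2 and ADM, 0.58 between HK2 and NDRG1 and 0.55 between HK2 and VEGFA. VEGFA had r of 0.05 with NDRG1 and -0.03 with ADM. The points share arrays and their normalization, so these correlations are descriptions.

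The genes whose line-centred levels ran closest to the mean of VEGFA, ADM, NDRG1 and HK2 over the 12 arrays were MET (Pearson's r 0.98), ADGRG6 (0.96), MCL1 (0.95), HBEGF (0.95) and MAPKAPK5 (0.95). MET is a receptor tyrosine kinase, HBEGF a growth factor that binds the EGF receptor, and MCL1 an inhibitor of apoptosis. HBEGF had AGS levels of 5.93 with DMSO, 7.04 with Rhosin, 5.47 with JK136 and 5.76 with JK139. MET had 8.19, 8.65, 7.86 and 8.16. Both were highest with Rhosin and lowest with JK136 in AGS, as was HK2. The genes were picked by likeness to a mean that includes HK2. That mean had its largest values on AGS with Rhosin (0.44) and AGS with JK136 (-0.31). The shared order is therefore no separate evidence about HK2.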

How the data were processed

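The deposited values are log2 signals that the authors made with RMA in Affymetrix Expression Console, per the submitters' processing notes, which include quantile normalization between arrays by RMA's design. The sources used here give no versions. Of 53617 transcript clusters, 16098 (30.0%) had a symbol, and each of 14884 symbols was represented by its cluster of highest mean. Genes at or above the 40th percentile of means (4.61) entered limma 3.58.1 (R 4.3.3). Treatments and lines were compared with line and treatment as fixed terms over 12 arrays (6 residual degrees of freedom). AGS with Rhosin and the interaction were tested over 6 cells of line and Rhosin or other (6 residual degrees of freedom). Tests were two-sided, and an adjusted p under 0.05 was called.

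The members and lists were chosen with earlier results of these data known. Named were the members, up to 4 called genes of a list with the largest difference, the 3 highest and 3 lowest of a list in AGS with Rhosin, and the 5 genes most like the members, with a selection given for the line comparisons. With 1 array per line and treatment, p-values measure the spread between lines or between treatments, and precision is limited by the number of arrays. The model was tested on simulated data. Alternatives covered normalization, filters, priors, weights, blocks and leaving out arrays or lines.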

Additional observations from a re-analysis of the deposited data

How the results depend on the processing

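Cell line entered the treatment comparisons as a block, and the fit without it called 0 genes. Over 42 differences of single genes, 848 of 907 values under other settings kept their direction and side of the threshold, 8 lost and 11 gained a call, and 40 changed sign, 0 of them called values. With trend and robust prior, 1 gene was called for Rhosin against DMSO, 2 against JK136, 1 against the other treatments, 193 for AGS with Rhosin (2 members) and 12 for the interaction. Without a filter these were 1 for JK136 against DMSO, 17 in AGS and 0 for the interaction. At the 60th percentile they were 1 for Rhosin against the others and 161 in AGS (2 members). Quantile normalization called 2 for Rhosin against the others, 1 member in AGS and 4 for the interaction, and median centring 103 genes and 1 member in AGS. Array weights called 1 member in AGS and 11 genes for the interaction, and every cluster on its own 108 clusters and 1 member. The additive model with 1 added term called 0 for the interaction. Without MKN1, 17 genes were called in AGS and without SNU601 21, with 0 each for the interaction.

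Signs changed in uncalled values. For Rhosin against DMSO, ADM was -0.03 with array weights and -0.14 without AGS, and HK2 was -0.04 without AGS. For JK136 against DMSO without AGS, VEGFA was 0.24, ADM -0.0031 and HK2 0.06. For JK139 against DMSO, HK2 was -0.03 with array weights and -0.10 without MKN1. For Rhosin against JK136, VEGFA was -0.08 with array weights and -0.28 without AGS, ADM 0.09 without MKN1, and NDRG1 -0.0035 and HK2 -0.10 without AGS. For Rhosin against JK139, VEGFA was -0.05 without MKN1, and ADM -0.06 and HK2 -0.07 without AGS. The cause was not tested beyond the arrays left out.

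Leaving out each array in turn gave the following ranges. For Rhosin against DMSO, VEGFA was -0.20 to 0.10, ADM -0.12 to 0.15 and HK2 -0.11 to 0.52. For JK136 against DMSO, VEGFA was -0.43 to 0.22, ADM -0.03 to 0.09 and HK2 -0.39 to 0.16. For JK139 against DMSO, VEGFA was -0.25 to 0.02 and HK2 -0.07 to 0.11. For Rhosin against JK136, VEGFA was -0.28 to 0.37, ADM -0.17 to 0.10 and NDRG1 -0.02 to 0.27, with 0 to 3 genes called. For Rhosin against JK139, VEGFA was -0.09 to 0.21, ADM -0.04 to 0.23 and HK2 -0.13 to 0.50. In AGS with Rhosin, VEGFA was -0.0035 (without JK136) to 0.52, with 34 to 126 genes and 0 to 2 members called, and the interaction called 0 to 11 genes. The comparisons of AGS with Rhosin gave no value without that array or without AGS.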
